A study of Mus musculus with 16 samples.

Results

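Heat shock proteins and their DnaJ partners were examined in microglia, the resident macrophages of the brain, sorted from hippocampi of young (3 months) and aged (20 months) mice. The members are the 73 of 24015 genes in the deposited table whose symbol begins with Hspa, Hspb, Hspd, Hspe, Hsph, Hsp90 or Dnaj. They were chosen by name only. Hspbap1 was left out, and Hspbp1, a regulator of HSP70, is included through the spelling of its symbol. Of the 73 members, 61 were among the 11579 genes tested, which reached at least 10 normalized counts in at least 6 of the 12 samples.

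The study compared hippocampal microglia between young and aged mice. Cells positive for CD11b with low CD45 were sorted from dounced, myelin-depleted hippocampi, and full-length cDNA was sequenced from libraries that do not keep the strand. The young group is 6 samples at 3 months and the aged group is 6 samples at 20 months. The labels name neither sex, treatment nor transgene for either group. All young samples and aged 1 to 4 are labelled C57BL/6. Aged 5 is labelled C57BL/7, and the 2 libraries of aged 6 are labelled C57BL/8 and C57BL/9. Whether these are errors of entry was not settled. Young 2, young 4, aged 3 and aged 6 have 2 technical libraries each but 1 column each, and each counts as 1 sample. The labels leave unsaid if samples stand for single mice or pools, and p-values here refer only to the spread among these 12 samples, which may be partly technical.

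Depth ran from 11.4 M reads in young 1 to 47.3 M in young 5 among the 7 samples with recovered reads. For aged 2 the value of 26.1 M is less sure, for a reason given with the processing. It was not recovered here for the 4 samples with 2 libraries. The microglial marker Tmem119 had 211774 to 242122 normalized counts at 3 months and 196778 to 235026 at 20 months, and Csf1r had 568781 to 697692 and 528234 to 635409. Neither these nor the microglial markers P2ry12 and Cx3cr1 passed the test of age in limma. The 5 neuronal markers summed to at most 4.68 CPM (normalized counts scaled to the sample's total). The 6 monocyte markers summed to 2.20 to 4.52 CPM at 3 months and to 4.64 to 6.11 at 20 months, and none of them was at 0 in all samples. The 5 astrocyte markers summed to 205 to 257 and 212 to 277 CPM, with Aldh1l1 higher at 20 months (57.2 ± 26.5 against 19.4 ± 8.37 normalized counts, SD, n = 6 each; limma adjusted p = 0.041), and the 5 of choroid plexus and ependyma to 9.82 to 48.6 and 16.1 to 131 CPM. The members held between 0.523% (young 4) and 0.668% (aged 1) of all normalized counts. In bulk samples such as these, fewer cells of a type and less RNA per cell cannot be told apart.

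HSP70 proteins bind unfolded stretches of other proteins and let them go in a cycle driven by ATP. DnaJ proteins bring the clients and start ATP hydrolysis through their J domain, exchange factors such as the HSP110 protein Hsph1 reset the cycle, and HSP90 acts on partly folded clients. Each compartment has its own set, led by Hspa8 in the cytosol, Hspa5 (BiP) in the endoplasmic reticulum and Hspa9 (mortalin) in mitochondria. Inducible cytosolic members are classic targets of heat shock factor 1, and the reticulum set is a target of the unfolded protein response.

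With age, 1 of the 61 tested members rose and none fell. The member that rose was Hspa12a, a distant relative of HSP70. Over all tested genes, 1.73% were called in either direction, 1.27% higher and 0.458% lower at 20 months (limma, adjusted p under 0.05), and the members' share was 1.64%. At an unadjusted p under 0.05, limma picked 7 members, which is 11.5% against 10.8% of all tested genes, and 3 of these (Dnajc27, Dnajc18 and Dnajb11) were lower at 20 months. On reads recovered from 7 samples, edgeR and DESeq2 likewise called 1 member higher and 0 lower. The difference in mean log2 normalized count, 20 minus 3 months, was above 0 for 40 members and below 0 for 21. Its median was 0.07 over the members and 0.0016 over all tested genes, and the members' median ran from 0.02 to 0.09 over the alternative analyses.

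**Figure D1:**
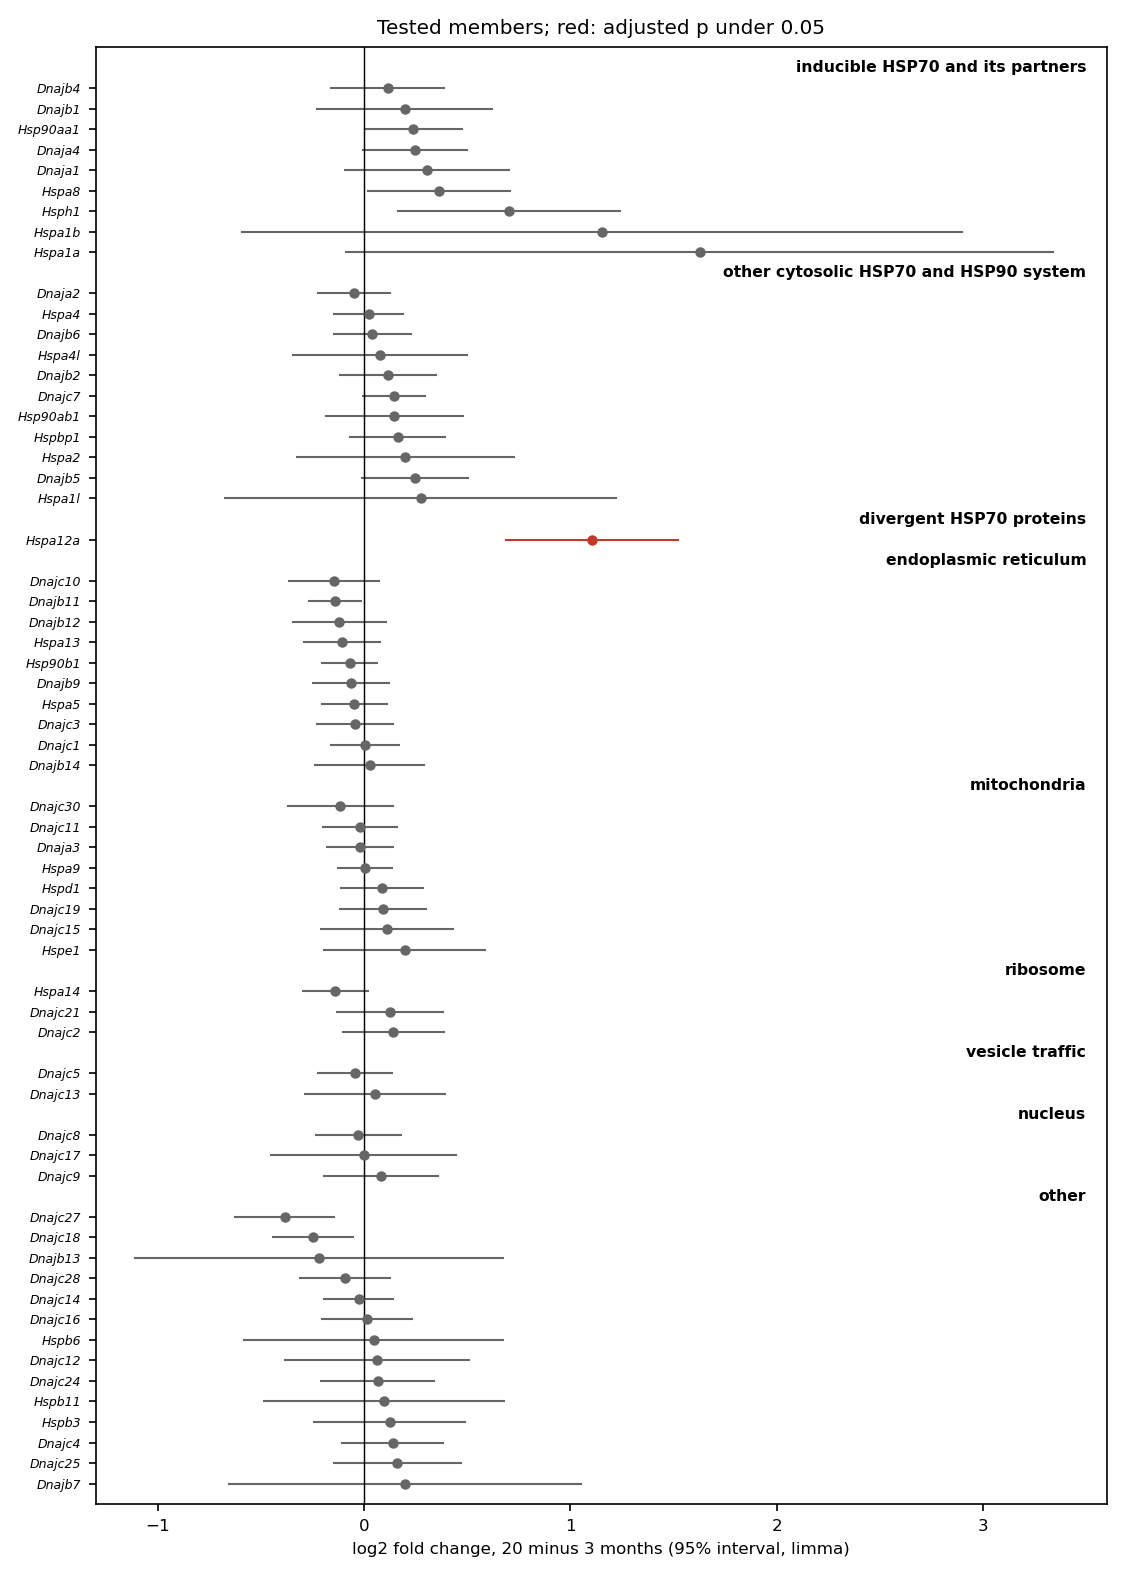
Log2 fold change at 20 against 3 months (x axis) of the 61 tested members, grouped by role (y axis); points are limma estimates and lines their 95% intervals, and red marks an adjusted p under 0.05. Hspa12a alone is red, and the intervals of Hspa1a and Hspa1b are the widest among the 9 members in the top group (inducible HSP70 and its partners).

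Hspa12a, whose product carries an atypical HSP70 ATPase domain, had the clearest difference. Its normalized counts at 3 months were 179, 298, 198, 133, 237 and 178 in samples 1 to 6. At 20 months they were 439, 387, 646, 357, 513 and 295. All aged samples lay above all young ones except for aged 6, which was just under young 2. The mean rose from 204 ± 57.0 to 440 ± 125 (SD, n = 6 each). The log2 fold change was 1.11 (SE 0.20, 95% interval 0.69 to 1.52; limma adjusted p = 0.0055). Hspa12a passed the threshold in 27 of 27 alternative analyses, with adjusted p-values from 4.5e-07 (DESeq2) to 0.025, and in each fit that left out 1 sample. Without aged 5 and aged 6 its log2 fold change was 1.17 (limma adjusted p = 0.0065). The gene spans chr19:58795750-58943654 on the minus strand (mm10), and 166 bases of its exons overlap exons of Eno4 on the opposite strand. Eno4 had 53.2 to 106 normalized counts in the 12 samples, and its reads cannot be told from those of Hspa12a inside the overlap. The summed neuronal markers were 1.27 to 4.68 CPM at 3 months and 0.774 to 2.74 at 20 months. Some markers of other cells were higher in the group where Hspa12a was higher. The monocyte sum was higher in every aged sample than in any young one. Its largest part, Ccr2, overlapped, at 36.8 to 96.0 normalized counts at 3 months and 49.0 to 126 at 20 months. Of the 5 astrocyte markers 3 were tested and only Aldh1l1 was called higher at 20 months. The sums of the 5 overlapped between the ages, at 205 to 257 and 212 to 277 CPM. Slc1a3, with 5380 to 7259 normalized counts in the 12 samples, made up most of them. Gfap had 11.7 to 31.9 normalized counts at 3 months and 15.1 to 108 at 20 months. The median sum of choroid plexus and ependyma markers was 21.1 CPM at 3 months and 73.5 CPM at 20 months, with overlapping ranges. The part of other cells in the difference was not tested. Hspa12b, the close relative of Hspa12a, stayed at or under 11.6 normalized counts and was not tested. The RefSeq sequence of the 250 bases before the first listed start of Hspa12a, at chr19:58943673-58943922 on the minus strand (GRCm38.p6), is shown because this is the only member that passed; none of the motifs described next occurs in it, so it has no capitals.
Hspa12a: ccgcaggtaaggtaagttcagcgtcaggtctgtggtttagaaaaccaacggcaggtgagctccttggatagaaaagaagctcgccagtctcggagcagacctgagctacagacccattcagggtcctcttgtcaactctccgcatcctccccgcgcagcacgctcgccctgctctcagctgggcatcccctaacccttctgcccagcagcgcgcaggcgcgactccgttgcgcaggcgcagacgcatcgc

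The inducible HSP70 genes and their usual partners were higher on average at 20 months, but none passed the test. This group of 11 members, put together with their values known, holds 9 tested genes, the constitutive HSP70 gene Hspa8 among them. All 9 log2 fold changes were above 0 and their median was 0.30, while the 10 tested members assigned to the endoplasmic reticulum had a median of -0.07. limma called 0 of the 9 and picked 3 (Hsph1, Hspa8 and Hsp90aa1) at an unadjusted p under 0.05. Of all tested genes, 10.8% were picked at that level. As the group was put together with these values known, its share cannot be read against that of all genes. On the 7 samples with recovered reads edgeR and DESeq2 called 0, and DESeq2 gave no adjusted p for Hspa1a and Hspa1b. The group's median stayed above 0 in all 27 alternatives, between 0.21 without aged 1 and 0.45 without young 3. These alternatives reuse the same samples and the same chosen group, so they describe only how the median depends on processing and samples. The 2 members of the group that were not tested, the small heat shock proteins Hspb1 and Hspb8, had at most 5.87 and 13.1 normalized counts.

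Hspa1a and Hspa1b, neighbouring genes for the inducible HSP70 protein, varied widely among samples of both ages. Hspa1a had 12.3, 22.7, 211, 7.29, 24.9 and 24.3 normalized counts in young 1 to 6. In aged 1 to 6 it had 878, 139, 57.7, 45.0, 14.4 and 60.8. Young 3 stood above every aged sample but aged 1, and aged 5 lay below 4 of the 6 young samples. Its mean was 50.5 ± 79.1 at 3 months and 199 ± 335 at 20 months (SD, n = 6 each). The log2 fold change was 1.63 (SE 0.81, interval -0.08 to 3.34; limma adjusted p = 0.50) and was 0.94 without aged 1. Hspa1b had 68.8, 46.2, 330.0, 18.8, 41.3 and 20.8 normalized counts in young 1 to 6. Aged 1 to 6 had 1538, 242, 88.1, 40.6, 22.6 and 73.1. Again young 3, aged 1 and aged 2 were the 3 highest, and the ages overlapped over most of their range. Its log2 fold change was 1.15 (SE 0.83, interval -0.59 to 2.90; limma adjusted p = 0.73) and was 0.41 without aged 1. The SD of log2 counts within an age was 1.79 for Hspa1a and 1.84 for Hspa1b, larger than in 99.9% of tested genes. Of all 100-base stretches in their exons, 48.6% of Hspa1a and 49.9% of Hspa1b also occur in another transcript, mainly of each other, so how reads were split between them is uncertain.

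**Figure D2:**
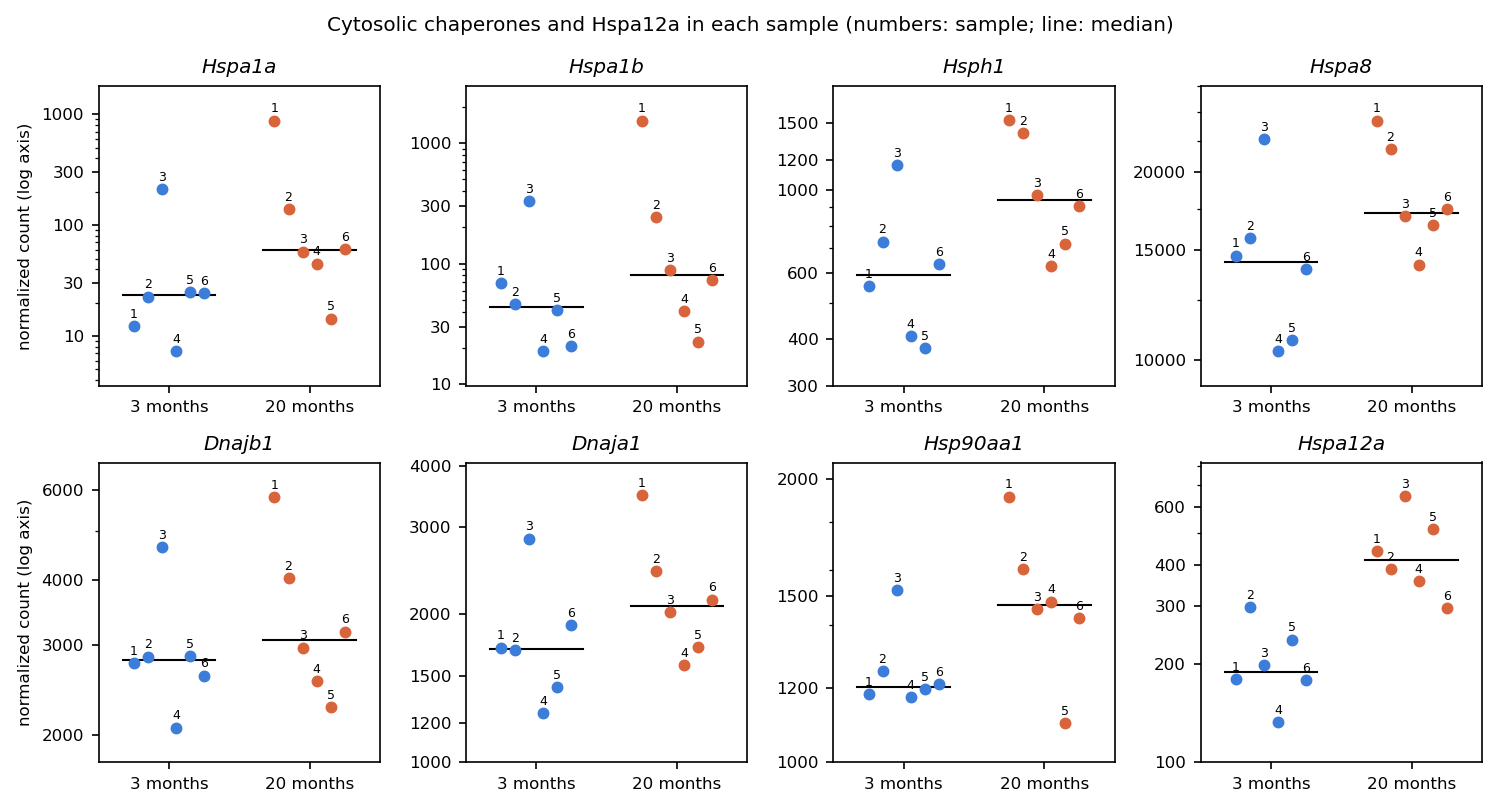
Normalized counts (y axis, log scale) of 7 inducible or constitutive cytosolic chaperone genes and of Hspa12a in each sample at 3 and 20 months (x axis); each point is a sample with its number, and lines are group medians. Young 3 and aged 1 stand high in all 7 chaperone panels, whereas in Hspa12a the aged samples lie between 295 and 646 and the young ones between 133 and 298.

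The upstream sequences of these genes are shown because several of these genes were high in the same samples and because the Hspa1 pair is nearly identical there. A heat shock element was searched in RefSeq windows from 250 bases before to 50 bases after each listed start (GRCm38.p6), on both strands. It was searched as alternating units GAA and TTC with 2 bases of any kind between neighbours, starting with either unit. Matches of 3 units and of 2 units were counted separately, and every match of 3 units also holds matches of 2 units. Of the 73 members, 59 have a window. Matches of 3 units were found in 4 of these 59 genes (6.78%), namely Hsph1, Dnajb6, Hspd1 and Hspe1, against 0.662% of 27025 genes with a window. Matches of 2 units were found in 16 of the 59 (27.1%) against 17.0% of genes. The 16 were Dnaja1, Dnaja4, Dnajb4, Dnajb6, Dnajc10, Dnajc27, Dnajc5g, Hspa1a, Hspa1b, Hspb1, Hspb3, Hspb6, Hspb8, Hspd1, Hspe1 and Hsph1. They thus include the reticulum gene Dnajc10 and Dnajc27, whose log2 fold change was below 0. Dnajb1 of the inducible group has windows but no match. Hspa1a (chr17:34972157-34972406) and Hspa1b (chr17:34959239-34959488), both on the minus strand, have the same base at 247 of the 250 positions before their start. Each has 1 match of 2 units, in capitals, with its first base 104 bases before the start.
Hspa1a: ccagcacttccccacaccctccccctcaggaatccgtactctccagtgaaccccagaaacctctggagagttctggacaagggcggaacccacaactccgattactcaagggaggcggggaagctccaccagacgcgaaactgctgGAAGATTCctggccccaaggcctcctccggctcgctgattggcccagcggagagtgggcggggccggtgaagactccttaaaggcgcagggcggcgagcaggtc
Hspa1b: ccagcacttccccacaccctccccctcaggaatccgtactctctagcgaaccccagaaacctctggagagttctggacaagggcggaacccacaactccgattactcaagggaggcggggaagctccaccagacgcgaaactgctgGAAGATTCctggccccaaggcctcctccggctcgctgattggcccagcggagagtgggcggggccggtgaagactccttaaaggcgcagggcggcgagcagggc
In the Hsph1 window the match of 3 units lies after the start, from base 36 to base 48 counted from the upstream one of its 2 listed starts, and reads TTCTGGAAAGTTC. Hspe1 and Hspd1 start next to each other on opposite strands in RefSeq and share the interval chr1:55087948-55088147, written here on the strand of Hspe1. The capitals mark 4 units in a row, which 2 overlapping matches of 3 units cover.
Hspe1: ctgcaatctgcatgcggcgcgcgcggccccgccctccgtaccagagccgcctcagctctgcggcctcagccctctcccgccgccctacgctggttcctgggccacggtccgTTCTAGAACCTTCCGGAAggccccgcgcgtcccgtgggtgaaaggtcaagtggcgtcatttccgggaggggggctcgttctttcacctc
A match is a description of letters and not evidence of a bound site. The RefSeq windows available here lacked 14 of the 73 members, Hspa8, Hsp90aa1 and Hsp90ab1 among them, so these could not be searched.

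Hsph1, the HSP110 exchange factor of HSP70, had the largest difference of the group outside the Hspa1 pair. It had 553, 727, 1162, 407, 378 and 633 normalized counts in young 1 to 6. In the aged samples the counts were 1530, 1413, 968, 626, 718 and 904. Young 3 lay among the 3 highest samples, and the lowest aged sample, aged 4, lay just under young 6. The mean was 643 ± 287 at 3 months and 1026 ± 368 at 20 months (SD, n = 6 each). The log2 fold change was 0.70 (SE 0.25, interval 0.17 to 1.24), with a limma adjusted p of 0.26. Leaving out single samples gave adjusted p-values down to 0.058, without young 3. Hsph1 shares no 100-base stretch with another transcript and overlaps no other exon, so its reads are not open to the doubt that holds for the Hspa1 pair.

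Hspa8, the constitutive cytosolic HSP70, followed a similar order of samples. It had 14709, 15674, 22598, 10329, 10776 and 13978 normalized counts in young 1 to 6. Counts in aged 1 to 6 were 24225, 21819, 17000, 14222, 16472 and 17468. Only aged 1 lay above young 3. The log2 fold change was 0.36 (SE 0.16, interval 0.02 to 0.71; limma adjusted p = 0.41). Of its 100-base exon stretches, 56.6% also occur elsewhere, among them in processed pseudogenes.

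The DnaJ partners and the stress form of HSP90 had smaller differences. Dnajb1, the main HSP40 partner of inducible HSP70, had 2068 to 4647 normalized counts at 3 months (median 2803) and 2268 to 5810 at 20 months (median 3070). Its log2 fold change was 0.20 (interval -0.23 to 0.62; limma adjusted p = 0.84). Dnaja1, a farnesylated partner of Hspa8, had 1259 to 2847 at 3 months and 1576 to 3488 at 20 months, with a log2 fold change of 0.30 (limma adjusted p = 0.66). In both genes young 3 and aged 1 were the highest sample of their age. Hsp90aa1, the inducible HSP90, had 1181, 1250, 1523, 1173, 1196 and 1211 normalized counts in young 1 to 6. In aged 1 to 6 it had 1915, 1604, 1454, 1481, 1100 and 1422. Here 5 of 6 aged samples exceeded all young samples but young 3, and aged 5 was the lowest of all 12. The log2 fold change was 0.24 (SE 0.11, interval 0.004 to 0.47; limma adjusted p = 0.45), and 40.7% of its exon stretches occur in other transcripts, its processed pseudogenes included. Dnaja4 and Dnajb4 had log2 fold changes of 0.25 and 0.11.

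Most of these 9 genes had their highest levels in 3 samples, aged 1, young 3 and aged 2. Aged 1 was among the 3 highest of 12 samples for 9 of 9 genes, young 3 for 8 and aged 2 for 7. Aged 6 held such a place for 2 genes, young 6 for 1 and the other 7 samples for 0. Lesser elevations were more widely shared, since aged 1, aged 3 and aged 6 were above the median of the samples for 9 of 9 genes, and young 3 and aged 2 for 8. Relative to each gene's median over the samples, the median log2 deviation of the 9 genes was 0.95 in aged 1, 0.66 in young 3 and 0.44 in aged 2. It was lowest in young 4, at -0.52, and next lowest in young 5, at -0.34. The order was not particular to the group, as the constitutive Hsp90ab1, outside it, had deviations of 0.47 in young 3 and 0.76 in aged 1. The 3 high samples had 31.6, 41.4 and 26.1 M reads, in the order aged 1, young 3 and aged 2, and the value of aged 2 is less sure. The neuronal marker sum was 4.68 CPM in young 3, the highest of all, but 1.62 in aged 1 and 1.19 in aged 2. Any part of depth or of other cells in these levels was not tested.

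**Figure D3:**
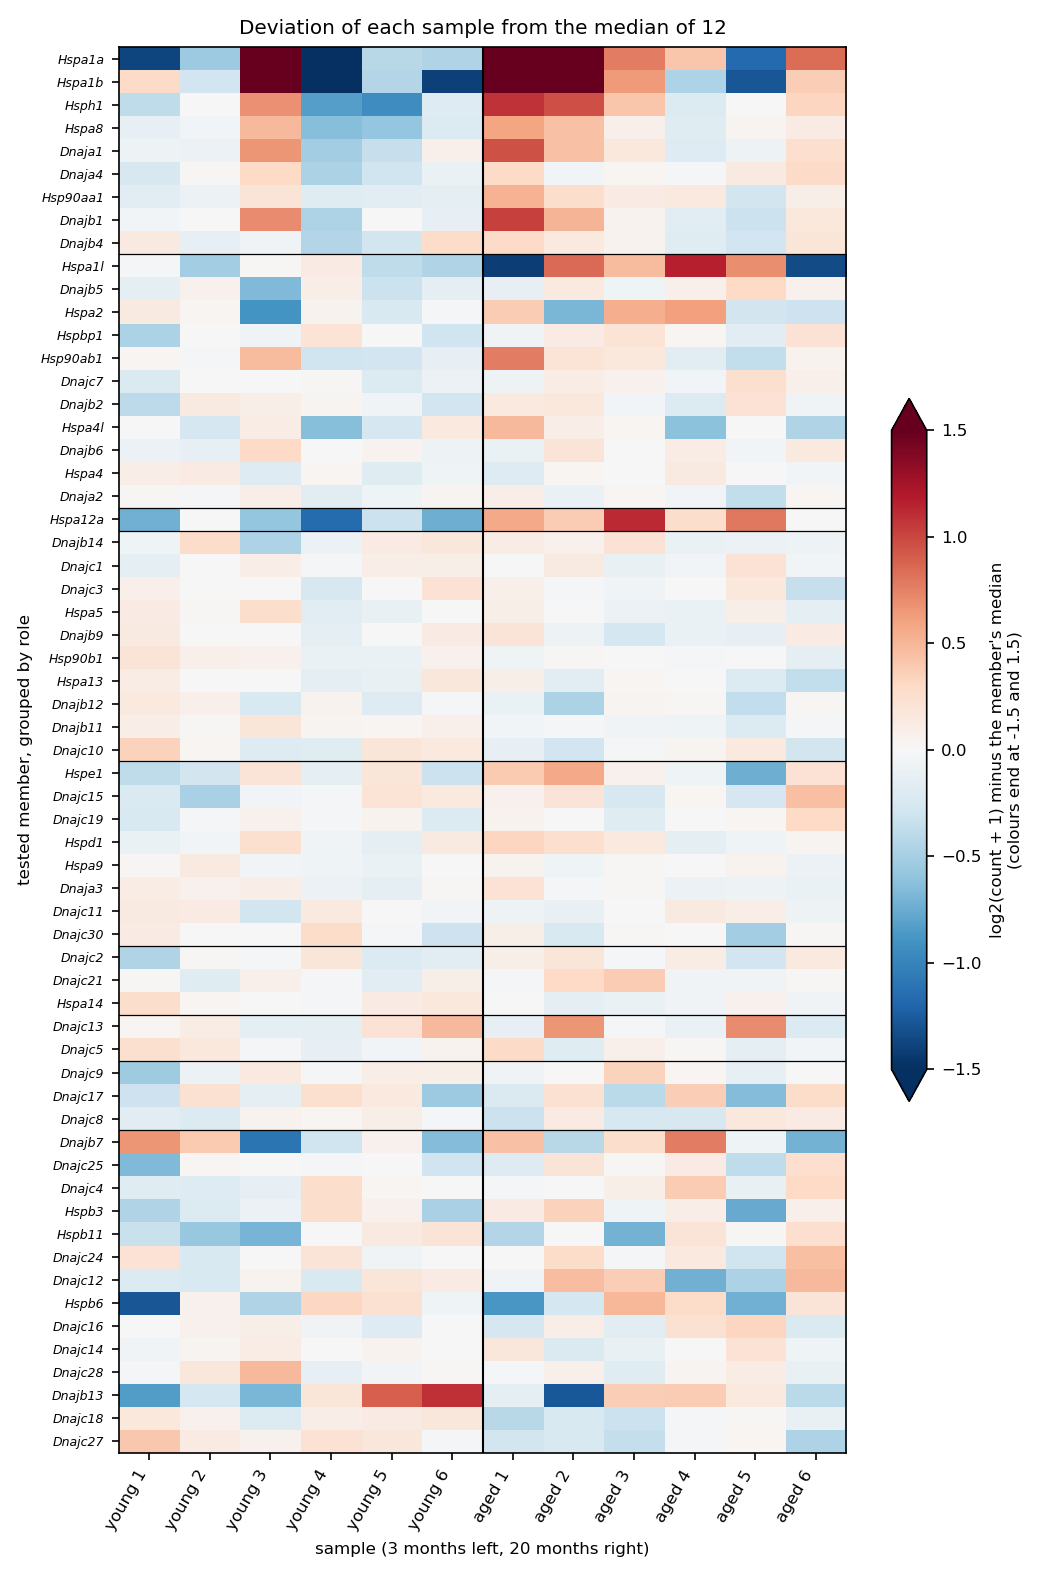
Deviation of each sample (x axis) from the median of 12 samples, in log2 normalized count, for the 61 tested members (y axis) grouped by role, with red above and blue below the median. In the top block of 9 genes the column of aged 1 is red throughout (median deviation 0.95) and those of young 3 (0.66) and aged 2 (0.44) are red for 8 genes each. Aged 3 and aged 6 are red for 9 but paler (0.13 and 0.25), young 4 is blue (-0.52), and most other blocks are pale.

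Levels of Hsph1 were set against those of 6 genes over the 12 samples, on the log2 scale. The genes were chosen with their levels known, so the correlations are a description and carry no test. Hspa8 followed Hsph1 most closely of the 6, with Pearson's r = 0.97 and Spearman's rho = 0.94. Hsp90aa1 had r = 0.82 and rho = 0.78, and Dnajb1 likewise had r = 0.82 and rho = 0.78. The mitochondrial Hspe1 had r = 0.54 and rho = 0.61. For the reticulum chaperone Hspa5 both were 0.45, and for the immediate early gene Fos r was 0.16 and rho 0.24. Aged 1 and aged 2 were the samples farthest from the Hsph1 median. Without them r was 0.96 for Hspa8, 0.68 for Dnajb1 and 0.67 for Hsp90aa1, so the values of Dnajb1 and Hsp90aa1 rest in part on those 2 samples. For Hspe1, Hspa5 and Fos r was then 0.19, 0.46 and 0.36.

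Within the ages Hspa8 had r = 0.98 and rho = 0.89 over the 6 young samples, and r = 0.97 and rho = 0.94 over the 6 aged ones. For Dnajb1 the measures differed among young samples, with r = 0.82 but rho = 0.37, and among aged samples they were 0.93 and 0.89. Hsp90aa1 had r = 0.87 and rho = 0.83 among young samples, and r = 0.74 and rho = 0.66 among aged ones. Hspa5 had r = 0.87 and rho = 0.77 among young samples, and r = 0.40 and rho = 0.54 among aged ones. Hspe1 had r = 0.11 and rho = 0.086 among young samples, and r = 0.77 and rho = 0.83 among aged ones. Fos had r = 0.60 and rho = 0.49 among young samples, and r = -0.66 and rho = -0.49 among aged ones.

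**Figure D4:**
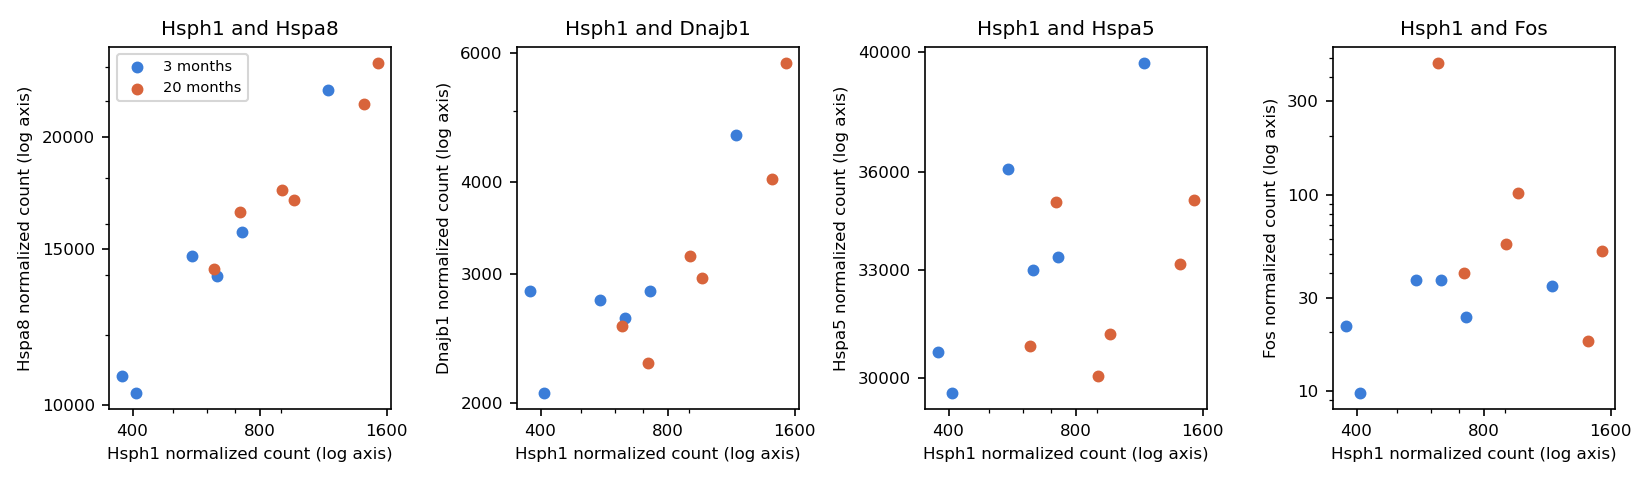
Normalized count of Hsph1 (x axis, log scale) against Hspa8, Dnajb1, Hspa5 and Fos (y axes, log scale) in 12 samples, blue at 3 and orange at 20 months; each point is a sample. Points for Hspa8 lie near a line (r = 0.97 over 12 samples), those for Dnajb1 less so (r = 0.82), and those for Hspa5 (r = 0.45) and Fos (r = 0.16) scatter.

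The other cytosolic members, which include the constitutive HSP90 and the DnaJ proteins that tag or hold clients, gave no call among 11 tested. 10 of the 11 log2 fold changes were above 0 and the median was 0.15. limma picked 0 at an unadjusted p under 0.05, beside 10.8% of all tested genes, and edgeR and DESeq2 called 0. Hsp90ab1, the constitutive HSP90, had 9547 to 16227 normalized counts at 3 months (median 11114) and 9096 to 19880 at 20 months (median 12587). Its highest samples were young 3 and aged 1, and its log2 fold change was 0.15 (limma adjusted p = 0.85). Dnajb5 had 533 to 903 normalized counts at 3 months and 774 to 1039 at 20 months, a log2 fold change of 0.25 (interval -0.01 to 0.51; limma adjusted p = 0.48). Hspa1l, a relative of Hspa1a beside it on chromosome 17, was low at 15.4 to 24.5 and 7.78 to 51.6 normalized counts. Its lowest samples were aged 1 and aged 6, and so it did not share the pattern of the neighbouring pair. Hspbp1, an HSP70 exchange factor, had a log2 fold change of 0.16 (limma adjusted p = 0.70), and Dnaja2, a partner of Hspa8, one of -0.05 (limma adjusted p = 0.92).

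The endoplasmic reticulum set had small differences, mostly downward. The set holds the members assigned to the reticulum here and may be incomplete. The membrane J protein Dnajc18 (log2 fold change -0.25), for example, was grouped under other roles. Of the 10 tested members of the set 8 had a log2 fold change below 0, and the median was -0.07 (from -0.10 to -0.04 over the alternatives). limma called 0 and picked 1 (Dnajb11) at an unadjusted p under 0.05, beside 10.8% of all tested genes. edgeR and DESeq2 also called 0. Dnajb11 (ERdj3), a soluble partner of Hspa5, had 4057, 3855, 4291, 3919, 3880 and 3986 normalized counts in young 1 to 6. Aged 1 to 6 had 3700, 3737, 3665, 3639, 3303 and 3713. Every aged sample lay below every young one, which was so for no other member. Of the 61 members, 1 (1.64%) thus separated the ages. Among all tested genes 1.87% did so in either direction, 0.717% with the aged samples lower and 1.16% with them higher. The mean was 3998 ± 161 at 3 months and 3626 ± 162 at 20 months (SD, n = 6 each), a log2 fold change of -0.14 (SE 0.06, interval -0.27 to -0.02; limma adjusted p = 0.37). The separation was absent when the samples were scaled to the same total. Dnajc10 (ERdj5), a reductase with a J domain, had 1647 to 2389 normalized counts at 3 months and 1537 to 2084 at 20 months, a log2 fold change of -0.15 (limma adjusted p = 0.73).

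The 2 most abundant members sit in this set and differed little. Hspa5 had 29623 to 39604 normalized counts at 3 months (median 33193) and 30059 to 35105 at 20 months (median 32188). Its log2 fold change was -0.05 (interval -0.20 to 0.11; limma adjusted p = 0.91). Hsp90b1 (GRP94), the HSP90 of the reticulum, had 24917 to 30621 and 24215 to 27000, a log2 fold change of -0.07 (interval -0.20 to 0.06; limma adjusted p = 0.81). Dnajc3 (p58IPK) and Dnajb12, a membrane J protein, had log2 fold changes of -0.04 and -0.12. The sequences before Hspa5 (chr2:34771840-34772089, plus strand) and Hsp90b1 (chr10:86705445-86705694, minus strand) are shown for another motif. They hold the endoplasmic reticulum stress element, searched as CCAAT, 9 bases of any kind and CCACG on both strands and printed in capitals. It was found in 3 of the 59 members with a window (5.08%; Hspa5, Hsp90b1 and Dnajc3) and in 0.137% of 27025 genes.
Hspa5: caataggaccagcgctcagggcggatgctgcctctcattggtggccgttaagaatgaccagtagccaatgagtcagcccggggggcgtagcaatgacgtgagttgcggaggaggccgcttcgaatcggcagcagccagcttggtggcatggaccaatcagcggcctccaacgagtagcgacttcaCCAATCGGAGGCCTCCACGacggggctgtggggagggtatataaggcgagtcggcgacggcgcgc
Hsp90b1: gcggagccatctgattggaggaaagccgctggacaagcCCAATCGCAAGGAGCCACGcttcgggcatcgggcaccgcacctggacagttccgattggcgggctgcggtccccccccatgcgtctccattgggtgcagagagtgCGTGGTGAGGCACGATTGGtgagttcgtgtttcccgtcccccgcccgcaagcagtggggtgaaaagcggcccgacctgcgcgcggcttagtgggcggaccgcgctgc
Hspa5 has its match 65 bases before the start, and Hsp90b1 has 2, which begin 212 and 107 bases before it, the nearer one on the opposite strand. GENCODE M21 places the outermost start of both genes inside the sequence shown.

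Mitochondrial members were nearly level between the ages. All 8 were tested, 5 had a log2 fold change above 0, and the median was 0.05. limma, edgeR and DESeq2 called 0. At an unadjusted p under 0.05 limma picked 0, beside 10.8% of all tested genes. Hspd1 and Hspe1, the HSP60 and HSP10 of the mitochondrial chaperonin, had log2 fold changes of 0.09 (limma adjusted p = 0.85) and 0.20 (limma adjusted p = 0.82). Hspe1 had 292 to 436 normalized counts at 3 months and 228 to 564 at 20 months, and aged 2 was its highest sample. On the 7 samples with recovered reads its log2 fold change was -0.05 with limma, so its direction is not settled. Dnaja3 (Tid1), the J protein of mortalin, and Hspa9 itself had log2 fold changes of -0.02 and 0.0045, and Dnajc30 one of -0.11.

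Dnajc27 and Dnajc18 had the largest downward differences among members grouped here under other or less defined roles. Dnajc27, which joins a J domain to a Rab-like GTPase, had 508, 418, 402, 447, 433 and 377 normalized counts in young 1 to 6. In the aged samples the counts were 317, 326, 299.8, 375, 389.9 and 278. Aged 5 was the only aged sample above the lowest young sample, young 6. The mean was 431 ± 45.0 at 3 months and 331 ± 43.5 at 20 months, a log2 fold change of -0.38 (SE 0.11, interval -0.62 to -0.14; limma adjusted p = 0.12). Dnajc18, a membrane J protein, had 1422 to 1851 normalized counts at 3 months and 1234 to 1662 at 20 months. Young 3 was the lowest young sample and lay within the aged range, and the log2 fold change was -0.25 (SE 0.09; limma adjusted p = 0.28). Dnajb13, a protein of motile cilia, had 9.82 to 40.5 and 7.04 to 24.1 normalized counts, with a log2 fold change of -0.22 whose interval ran from -1.11 to 0.67. Exons of 28 of the 73 members overlap another gene, and in Dnajb13 up to 305 bases overlap Ucp2 on the opposite strand. Inside the overlap the reads of Dnajb13 and Ucp2 cannot be told apart. Hspb3, a small heat shock protein best known from muscle, had 262 to 443 and 219 to 470 normalized counts (log2 fold change 0.12; limma adjusted p = 0.89). Dnajc5 (cysteine string protein), a chaperone of vesicle release, had 4695 to 6033 and 4529 to 6258, with a log2 fold change of -0.04. Hspa14, the HSP70 of the ribosome-associated complex, had a log2 fold change of -0.14 (limma adjusted p = 0.55).

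The 12 members that were not tested were Dnajb3, Hspb1, Hspa12b, Hspb8, Hspb9, Dnajc22, Dnajc6, Hspb7, Hspb2, Dnajc5b, Dnajc5g and Dnajb8. No sample held more than 13.1 normalized counts of any of them, and Dnajc5b, Dnajc5g and Dnajb8 had 0 in all 12. By family, 13 of 14 Hspa and Hsph genes were tested, both chaperonin genes, all 3 HSP90 genes and all 4 Dnaja genes. So were 11 of 13 Dnajb genes, 24 of 28 Dnajc genes and 4 of 9 genes whose symbol begins with Hspb. The tested Hspb genes include Hspbp1, which is counted there by spelling only.

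Levels can be set between genes once divided by exon length. At 3 months Hsp90b1 was highest, at 9702 normalized counts per kilobase of exon, followed by Hspa5 at 8986, Hspa8 at 6131 and Hsp90ab1 at 4599. These are means of 6 samples, with SDs of 769 for Hsp90b1, 973 for Hspa5 and 1853 for Hspa8, so Hsp90b1 and Hspa5 do not differ beyond their spread. Dnajc7, a J protein that bridges HSP70 and HSP90, was the highest DnaJ gene at 1480 per kilobase, ahead of the splicing-linked Dnajc8 at 1356 and of Dnajb11 at 1235. The inducible Hspa1b and Hspa1a were among the lowest tested members, at 31.3 and 17.0 per kilobase. At 20 months the same 4 genes led in the same order, with Hspa8 at 7742 and Hsp90ab1 at 5169 per kilobase.

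**Figure D5:**
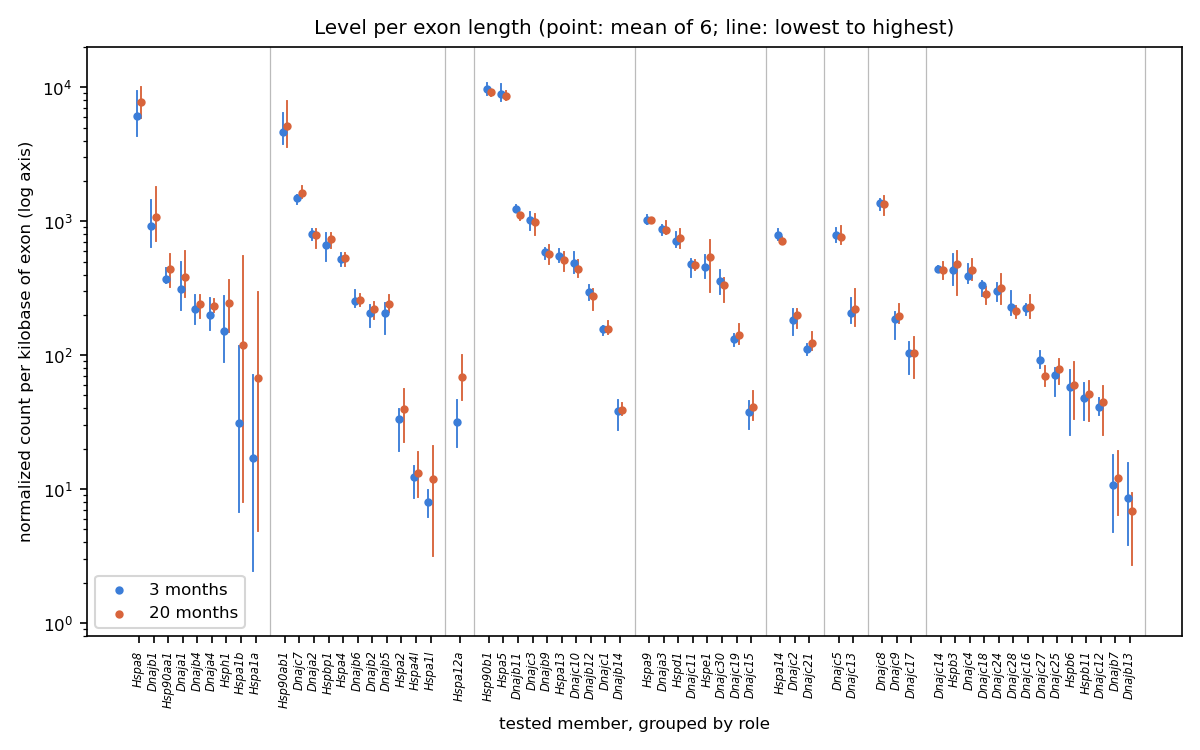
Normalized count per kilobase of exon (y axis, log scale) of the 61 tested members (x axis), grouped by role with grey dividers; points are means of 6 samples, lines run from the lowest to the highest sample, blue at 3 and orange at 20 months. Hsp90b1 and Hspa5 are highest at 9702 and 8986 at 3 months, and the lines of Hspa1a and Hspa1b are long.

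The regulators and partners of these chaperones were read from lists drawn up for this comparison. None of the 4 tested heat shock factors and binding proteins (of 7 listed), 18 HSP70 co-chaperones, 23 HSP90 co-chaperones (of 24), 16 chaperonin CCT and prefoldin genes (of 17) or 10 mitochondrial proteases and stress genes (of 11) passed in limma, edgeR or DESeq2. At an unadjusted p under 0.05 limma picked 1 gene in each co-chaperone list and 0 in the other 3. Over all tested genes it picked 10.8% at that level and called 1.73% at the adjusted threshold. As the lists were drawn up with earlier results known, their shares cannot be read against these. Hsf1, the master factor of the heat shock response, had 1698 ± 223 normalized counts at 3 months and 1883 ± 175 at 20 months (SD, n = 6 each; limma adjusted p = 0.66). Fkbp5, an HSP90 co-chaperone induced by glucocorticoids, had 3100 ± 576 and 4003 ± 387, a log2 fold change of 0.39 (limma adjusted p = 0.12). Stip1, which hands clients from HSP70 to HSP90, had a log2 fold change of 0.22 (limma adjusted p = 0.43). The smallest p of their lists belonged to Cct2, a chaperonin subunit (log2 fold change -0.14; limma adjusted p = 0.60), and Lonp1, a mitochondrial protease (log2 fold change 0.20; limma adjusted p = 0.55).

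Of 22 tested genes for folding in the reticulum and the unfolded protein response (25 listed), limma and edgeR called 0. At an unadjusted p under 0.05 limma picked 1, beside 10.8% of all tested genes. DESeq2 called 1 lower, and its counts over all tested genes are given with the processing. That gene is Pdia3, a disulfide isomerase, with 33452 ± 2024 normalized counts at 3 months and 28972 ± 1726 at 20 months (log2 fold change -0.21; limma adjusted p = 0.12; DESeq2 adjusted p = 0.0093 on 7 samples and 0.014 with aged 2 added). Among 19 tested immediate early genes (20 listed), 1 fell with age, which is 1 gene beside a background of 0.458% of all tested genes called lower. Btg2, an antiproliferative factor, had 8333 to 10163 normalized counts at 3 months and 6844 to 7689 at 20 months, with no overlap. Its log2 fold change was -0.32 (SE 0.06; limma adjusted p = 0.015). It was called in 23 of 27 alternatives. It was not called by limma with the replicate number as a block (adjusted p = 0.059), by limma (adjusted p = 0.12) or edgeR (adjusted p = 0.13) on the 7 samples with recovered reads, or by edgeR with aged 2 added (adjusted p = 0.059).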

How the data were processed

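RNA of 6 young and 6 aged samples was measured. The authors' deposited file is a table of normalized counts, a non-negative signal. Per the submitters' processing notes, bcl2fastq, STAR, SAMtools and DESeq2 were used with build mm10, and per the labels' protocols the libraries were SmartSeq and Nextera XT. Their versions and the annotation were not given in the sources used here. Each value was analysed as log2(count + 1), which understates changes of low genes, and compared with limma 3.58.1 in R 4.3.3 (mean-variance trend, two-sided, Benjamini-Hochberg over 11579 genes at 0.05), with no further scaling. Errors of levels are SDs over samples.

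The design assumed normalized values, and their steps were examined. In the columns of 8 samples (young 1, 3, 5 and 6; aged 1, 2, 4 and 5), 100% of the values above 0 came within 0.1 read of a whole multiple of a step. The step of aged 2 is close to 1, where rounding can look like whole reads, so the count tests used the other 7, and aged 2 was added as an alternative after seeing the data. On the 7 samples edgeR 4.0.16 called 92 genes higher and 10 lower, and DESeq2 1.42.0 called 177 and 52. The limma code was tested on simulated data.

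Members and lists were chosen with earlier results of these data known, and the permutation tests planned for correlations with Hsph1 are therefore not reported. Named were members that passed or that separated the ages, the 8 largest differences each way, the 2 most abundant of each family, textbook stress genes, the gene with the smallest p of each list, and members that complete a role or the count of those not tested. Gene positions and exon lengths are from GENCODE M21, and promoter windows are from RefSeq. Alternatives changed the pseudocount, low-count filter, scaling, limma settings, replicate block, samples and tool.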

Additional observations from a re-analysis of the deposited data

Results flagged for a closer look

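A sample stood apart from the other 5 of its age, by Dixon's criterion for 6 values, in 6 of the 58 sample groups examined, and chance alone marks about 1 in 20. Young 3 was the highest young sample for Hsp90aa1, at 1523 normalized counts, and for Hspa1a, at 211. It was the lowest young sample for Dnajc18, at 1422. Aged 1 was the highest aged sample for Dnaja3, at 2667 normalized counts. Aged 5 was the lowest aged sample for Dnajb11, at 3303, and for Hspb3, at 219.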

How the results depend on the processing

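The rise of Hspa12a passed in each of 27 alternatives, and 1 member higher and 0 lower was the count in each. Over all tested genes, leaving out single samples gave 102 to 175 genes higher and 27 to 60 lower. The lower genes numbered 35, 32, 35, 27, 30 and 35 when the sample left out was young 1, young 2, young 4, young 5, young 6 or aged 2, in that order. On the 7 samples with recovered reads limma called 78 higher and 10 lower, and edgeR 92 and 10. With aged 2 added, an alternative chosen after seeing the data, edgeR called 76 and 15 and DESeq2 184 and 51. Fewer samples entered these fits, and the further cause was not tested. Replicate numbers did not pair the samples, as same-numbered samples correlated at -0.12 to 0.11. With the replicate block 115 genes were higher and 30 lower, and the immediate early list lost its call (0; Btg2 adjusted p = 0.059 in limma). That list also had 0 calls with limma and edgeR on the 7 samples and with edgeR on 8, and the reticulum folding list had 1 lower with DESeq2 on 7 and on 8.

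Members whose ages did not overlap numbered 0 to 1 higher and 1 to 2 lower without 1 sample. They numbered 1 higher (Hspa12a) and 0 lower when scaled to the same total. On the 7 samples they numbered 2 higher (Hspa12a and Dnajb5) and 1 lower (Dnajb11). Without aged 5 and aged 6, an alternative chosen after seeing the data, they numbered 1 higher and 2 lower (Dnajc27 and Dnajb11). The share over all tested genes was not counted in these settings. Fewer samples separate more easily by order alone, so these counts are not read as more members separating the ages. The correlation of Hsph1 with Dnajb1, 0.82 over 12 samples, was 0.68 without aged 1 and aged 2 and 0.82 within young samples. That with Hsp90aa1, also 0.82, was 0.67 without those 2 and 0.74 within aged samples, and that with Fos was -0.66 within aged samples.

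Differences near 0, none of which passed in limma, edgeR or DESeq2, changed sign in places, with edgeR and DESeq2 here on the 7 samples. Dnaja3 ran from -0.064 to 0.0011 (without young 1) over fits without 1 sample, and was 0.020 without aged 5 and aged 6, 0.0027 with edgeR and 0.0042 with DESeq2. Hspa5 ran from -0.082 to 0.0016 (without young 3). Dnajb13 ran from -0.40 to 0.0032 (without aged 2), and was 0.0066 with limma on 7 samples. Dnaja2 ran from -0.079 to 0.016 (without aged 5), and was 0.0093 without aged 5 and aged 6. Dnajc3 ran from -0.090 to 0.022 (without aged 6), and was 0.0045 with limma on 7 samples, 0.0042 with edgeR and 0.0050 with DESeq2. Dnajc5 was 0.0043 without aged 5 and aged 6, 0.00082 with edgeR and 0.0019 with DESeq2. Hspe1 was -0.055 with limma on 7 samples, -0.019 with edgeR and -0.013 with DESeq2. Of the other values of named genes, 944 kept their direction and side of the threshold (2 of them, Hspa1a and Hspa1b in DESeq2 on the 7 samples, had no adjusted p and are counted by direction alone), while 4 of Btg2 and 2 of Pdia3 crossed it. Young 1 had the lowest depth, 11.4 M reads, of the 7 samples with recovered reads.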
